A study of Mus musculus with 9 samples.

Results

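The matrix protease genes described here are the mouse genes whose symbols begin with Adamts, Adamtsl, Mmp or Timp followed by a digit. The rule found 51 of the 27179 genes counted, namely 19 Adamts genes, 5 Adamtsl genes, 23 Mmp genes (6 of them membrane-type) and 4 Timp genes. They were measured by bulk RNA sequencing in 9 libraries from 3 populations of luminal epithelial cells, sorted from adult mouse mammary glands after removal of lineage-positive cells. The populations, with 3 libraries each, were HR- LP (CD14 positive, PR-cre/YFP negative), HR+ LP (CD14 positive, PR-cre/YFP positive) and ML (CD14 negative, PR-cre/YFP positive by the sample labels). The design text of the series calls the ML cells YFP negative, and the sample labels were followed here. The reporter depends on a Cre driven by the progesterone receptor gene, and the labels do not say whether libraries of a population came from separate animals, so p-values measure the spread between these libraries.

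Matrix metalloproteinases (MMPs) are zinc enzymes that cut collagens, laminins and other matrix and surface proteins, either after secretion or, for the membrane-type enzymes, at the cell surface. ADAMTS enzymes are secreted relatives with thrombospondin repeats that cut proteoglycans such as versican and trim procollagens, and ADAMTS-like proteins share the repeats but lack the protease domain. TIMPs bind and block these enzymes. In the mammary gland this system is known for its part in branching of ducts and in the remodelling of the gland after lactation.

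Depth ranged from 27219103 to 108119756 counts per library, and members held between 0.07067% and 0.1523% of them. The 8 luminal markers (Krt8, Krt18, Krt19, Epcam, Cd24a, Cldn3, Cldn4 and Cldn7) were abundant, with a summed level of 13909 to 18830.0 CPM per library. The 8 immune markers summed to 3.32 to 13.5 CPM, most of it from Cd68, a lysosomal marker of macrophages that averaged 10.2 ± 1.40, 4.82 ± 0.700 and 2.38 ± 0.246 CPM in HR- LP, HR+ LP and ML and was lower at both steps. Ptprc and Adgre1, which mark leukocytes and macrophages, did not exceed 0.537 and 0.0876 CPM. Pgr, the progesterone receptor gene, averaged 9.41 ± 5.54 CPM in HR- LP, 279 ± 65.8 in HR+ LP and 435 ± 144 in ML (SD, n = 3). CPM is a gene's count relative to the total count of its library, scaled by edgeR's TMM factors. On the first principal component of log2(CPM + 1), which held 76.4% of the variance, the HR- LP libraries lay between 88.2 and 95.2, the HR+ LP libraries between -17.2 and -10.6 and the ML libraries between -82.9 and -74.6.

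Of the 51 members, 34 passed the filter on low counts and were tested, and 18 of these were called in at least 1 of the 3 comparisons at an adjusted p below 0.05. The main pattern was a stepwise fall of secreted ADAMTS protease genes and of the inhibitor gene Timp3 from HR- LP through HR+ LP to ML. A few members ran the other way, led by Adamts9 and Mmp14, and the most abundant member, Mmp15, was called in none of the comparisons. In bulk samples, fewer cells that express a gene and less RNA per cell cannot be told apart. Cd14, on which the sort was gated, averaged 1114 ± 103, 324 ± 35.2 and 24.7 ± 6.04 CPM in HR- LP, HR+ LP and ML. Kit averaged 1537 ± 227, 515 ± 47.7 and 7.46 ± 4.66 CPM, and Elf5 434 ± 111, 151 ± 8.67 and 36.0 ± 17.5 CPM. Cd14, Kit and Elf5 were lower at both steps, while Pgr, Esr1 and Foxa1 were higher in HR+ LP than in HR- LP. The part of the sort in the fall of the members was not tested.

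In HR+ LP against HR- LP, 9 members were lower and 3 higher, that is 26.5% and 8.82% of those tested, where 12.8% and 17.2% of all 15910 tested genes were called in these directions and 29.9% in either. In ML against HR+ LP, 8 members were lower and 0 higher by edgeR (23.5% of those tested lower), against 6.70% of all genes lower, 0.0943% higher and 6.79% in either direction. At an unadjusted p below 0.05, 0 members and 318 of the 15910 tested genes were higher in that comparison. DESeq2, limma voom and the other alternatives also called 0 members higher, where DESeq2 called 88 and limma voom 50 of the 15910. With so few of all genes higher, 0 of 34 members is near the share of all genes. In ML against HR- LP, 13 were lower and 5 higher (38.2% and 14.7%), against 21.3% and 23.3% of all genes, or 44.6% in either direction. The median log2 fold change of tested members was -0.97, -0.47 and -1.24 in these comparisons, and that of all tested genes 0.01, 0.01 and 0.03. The comparisons share libraries, and a low gene could pass the filter through the population where it was high, so these medians describe only the genes tested.

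The fall took in 6 members that were lower at both steps, the ADAMTS genes Adamts1, Adamts3, Adamts10, Adamts12 and Adamts15 and the inhibitor gene Timp3. They were 17.6% of the members tested, where 5.81% of all tested genes were lower at both steps. The group means fell in order in 17 of the 34 tested members (50.0%) and in 36.0% of all tested genes. Of the rest, 3 members were lower in HR+ LP and in ML than in HR- LP but were not called between ML and HR+ LP (Adamts2, Adamtsl4 and Timp2). Adamts7 and Adamts8 were called lower in ML than in each LP population, but not between the LP populations. Adamts17 and Adamtsl1 were called lower in ML against HR- LP alone.

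Markers of basal and myoepithelial cells moved with this fall in part. Of 11 such markers, 3 were lower and 0 higher in HR+ LP than in HR- LP (Krt14, Krt17 and Tagln), where 12.8% and 17.2% of all tested genes were. From HR+ LP to ML 1 was lower (Oxtr, the oxytocin receptor gene) and 0 higher, against 6.70% and 0.0943% of all genes. In ML against HR- LP 4 were lower and 1 higher (Krt5) by edgeR, against 21.3% and 23.3% of all genes. The summed level of the 11 markers was 59.7 to 103 CPM in HR- LP, 38.9 to 57.8 in HR+ LP and 34.3 to 53.2 in ML. None of the 11 was at 0 in all libraries. Oxtr averaged 15.3 ± 8.77, 4.52 ± 2.10 and 0.293 ± 0.298 CPM, whereas Acta2, the smooth muscle actin gene, averaged 7.41 ± 5.98, 10.1 ± 3.70 and 10.5 ± 3.39 CPM and was not called. The part of such cells in the fall was not tested.

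**Figure D1:**
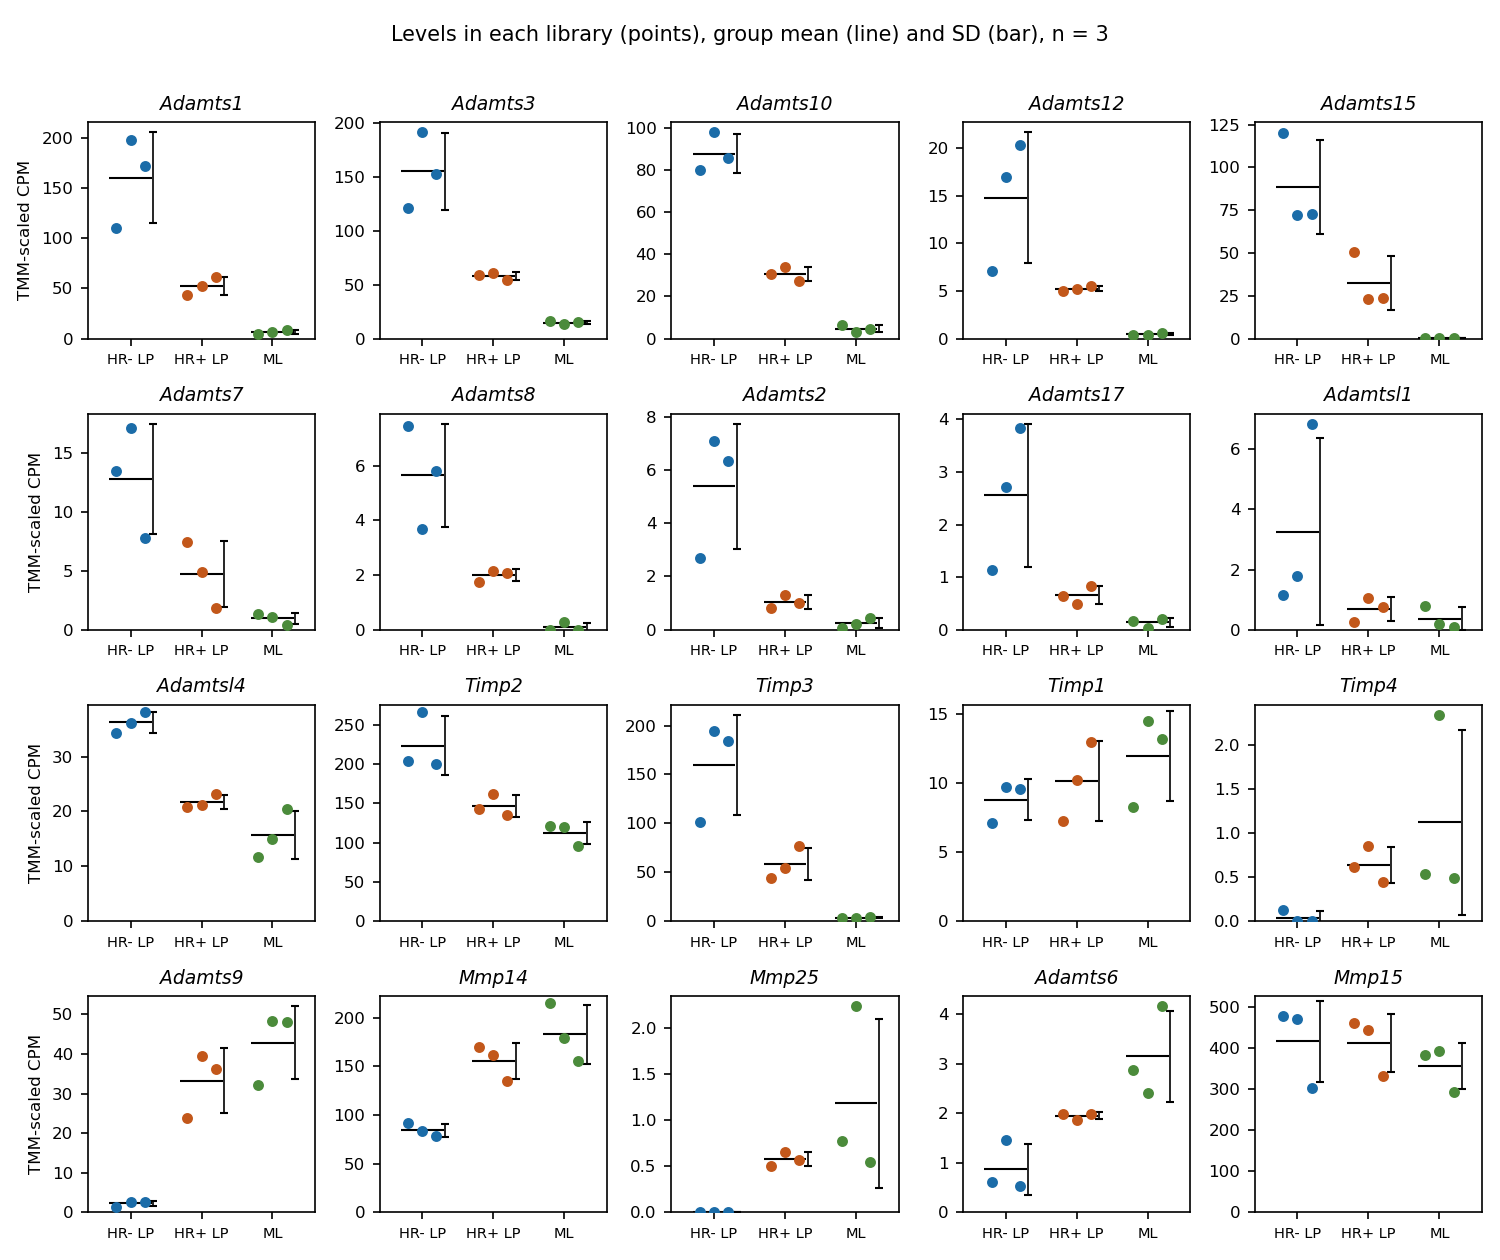
TMM-scaled CPM in each library for the 19 members chosen by the rule on calls and levels and for Mmp15 (Mmp2, Mmp3 and Mmp13 are given in the text alone); points are libraries, the line is the mean and the bar the SD of 3 libraries. Adamts1 falls from 109.9 to 198 CPM in HR- LP to 4.76 to 8.66 CPM in ML, while Adamts9 rises from at most 2.75 to at least 32.2 CPM.

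The Mmp genes of the collagenase, stromelysin and related groups that lie side by side on chromosome 9 were almost silent in all 3 populations. This cluster spans chromosome 9, 7272514 to 7699585 (GRCm38.p6, the assembly known as mm10), and holds 10 members in the order Mmp13, Mmp12, Mmp1b, Mmp3, Mmp1a, Mmp10, Mmp8, Mmp27, Mmp20 and Mmp7. No read was counted in any library for 5 of them (Mmp12, Mmp1b, Mmp8, Mmp20 and Mmp7), and all 10 together received 370 counts over the 9 libraries. The summed level of the cluster was between 0.110 and 2.43 CPM per library. A count of 0 allows a level of up to 0.0277 to 0.11 CPM, depending on the depth of the library, for counting error alone.

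Mmp3, which encodes stromelysin, a protease tied to mammary branching, accounted for the highest of these values. It stood at 0.424, 0.522 and 2.43 CPM in HR- LP, 0.153, 0.327 and 0.0438 CPM in HR+ LP, and 0.167, 0.681 and 0.471 CPM in ML. HR- LP replicate 3 was the highest library, and Mmp3 was not called by edgeR in any comparison, although DESeq2 called it lower in HR+ LP than in HR- LP (adjusted p = 0.0238). Of the 10 fibroblast markers, 7 were also at their highest of the HR- LP libraries there, 2 were at their lowest (Pdgfra at 11.2 CPM against 20.0 and 21.4, and Pdgfrb), and Dcn lay between. Their part in the Mmp3 value was not tested. Mmp13, a collagenase gene, was at most 0.229 CPM in the LP libraries and 0.770, 0.511 and 0.353 CPM in ML. Its ML libraries all lay above all LP libraries, but the difference was not called (log2 fold change 2.97 against HR- LP, SE 1.75, edgeR adjusted p = 0.196), except with limma voom (0.0369) and without HR- LP replicate 1 (0.0328).

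Promoters from RefSeq (GRCm38.p6, 250 bases before to 50 after an annotated start) were found for 36 of the 51 members. The start used was the outer end of the gene for 25 of them and lay inside the gene for 11, among them Adamts9, where it was 916 bases inside. They are shown for a pair of cluster genes and for 4 members that were called, because the cluster differed from the other members in its motifs. Capitals mark 3 motifs searched on both strands: TGANTCA (the AP-1 site bound by Fos and Jun proteins), TATAAA (the TATA box) and GGGCGG (the GC box bound by Sp1). All are written 5′ to 3′ on the strand of the gene.
Mmp3, chr9:7445572-7445871, plus strand: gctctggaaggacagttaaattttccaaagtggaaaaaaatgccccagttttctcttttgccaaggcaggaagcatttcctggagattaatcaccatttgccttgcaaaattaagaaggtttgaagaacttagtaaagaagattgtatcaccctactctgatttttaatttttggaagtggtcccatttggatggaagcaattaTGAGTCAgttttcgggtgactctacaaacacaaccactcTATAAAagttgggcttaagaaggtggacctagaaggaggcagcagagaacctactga
Mmp13, chr9:7272264-7272563, plus strand: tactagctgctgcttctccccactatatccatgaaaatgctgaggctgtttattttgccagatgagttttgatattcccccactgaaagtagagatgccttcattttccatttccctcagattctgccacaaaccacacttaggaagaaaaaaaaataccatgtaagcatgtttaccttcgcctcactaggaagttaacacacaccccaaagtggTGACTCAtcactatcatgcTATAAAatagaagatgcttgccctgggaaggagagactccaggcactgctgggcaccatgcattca
Adamts1, chr16:85803064-85803363, minus strand: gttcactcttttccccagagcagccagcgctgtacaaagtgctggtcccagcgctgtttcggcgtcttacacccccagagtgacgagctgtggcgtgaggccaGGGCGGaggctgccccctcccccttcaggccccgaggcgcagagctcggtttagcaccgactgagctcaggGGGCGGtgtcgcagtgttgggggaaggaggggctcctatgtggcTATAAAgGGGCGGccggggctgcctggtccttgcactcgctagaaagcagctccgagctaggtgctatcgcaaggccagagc
Timp3, chr10:86300162-86300461, plus strand: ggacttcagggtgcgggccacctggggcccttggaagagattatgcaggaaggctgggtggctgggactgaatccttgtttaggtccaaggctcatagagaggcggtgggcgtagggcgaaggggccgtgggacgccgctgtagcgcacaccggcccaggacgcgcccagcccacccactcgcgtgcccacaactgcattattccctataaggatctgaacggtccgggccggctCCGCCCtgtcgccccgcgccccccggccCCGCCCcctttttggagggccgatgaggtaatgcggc
Adamts9, chr6:92943485-92943784, minus strand: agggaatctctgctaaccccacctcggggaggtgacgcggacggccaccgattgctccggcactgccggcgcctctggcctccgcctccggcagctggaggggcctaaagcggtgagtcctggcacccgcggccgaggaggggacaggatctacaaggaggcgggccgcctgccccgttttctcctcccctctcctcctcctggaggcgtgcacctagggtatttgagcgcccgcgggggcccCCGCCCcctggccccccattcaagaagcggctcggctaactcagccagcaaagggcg
Mmp14, chr14:54431348-54431647, plus strand: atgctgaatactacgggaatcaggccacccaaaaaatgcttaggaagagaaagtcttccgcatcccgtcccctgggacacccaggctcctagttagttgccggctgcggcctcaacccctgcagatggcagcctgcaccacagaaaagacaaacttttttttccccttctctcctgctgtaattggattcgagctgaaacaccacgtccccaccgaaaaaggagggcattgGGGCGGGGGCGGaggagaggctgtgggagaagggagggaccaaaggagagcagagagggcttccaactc

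An AP-1 site was present in the promoters of 7 of the 10 cluster genes and of 0 of the other 26 members with a promoter, compared with 7.93% of all 27025 promoters of this length. A TATA box was present in 8 of the 10 cluster genes and 3 of the other 26 members, against 14.2% of all promoters. The GC box had the opposite distribution, with 0 of the 10 cluster genes and 21 of the other 26 members, against 35.9% of all promoters. The marked motifs do not overlap one another in these promoters, although the GC boxes of Mmp14 adjoin. Of the 12 members with a promoter that were called between ML and HR- LP, 0 held an AP-1 site and 0 held TGTTCT, the half-site of the progesterone response element, which 19.0% of all promoters held. A match describes letters in this window and is not evidence of binding. G and C made up 37.7 to 46.7% of the cluster promoters and 53.3 to 80.0% of those of the other 26 members. The part of base composition in these motif counts was not tested.

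Of the 7 Fos and Jun genes listed, 6 averaged at least 144 CPM in every population while the cluster was near 0, and Fosl1 averaged 81.7 ± 53.6, 29.3 ± 20.9 and 4.44 ± 3.14 CPM in HR- LP, HR+ LP and ML. Fosb averaged 11350.4 ± 2196 CPM in HR- LP, 7239 ± 479 in HR+ LP and 4142 ± 728 in ML. Of 14 genes for transcription factors known to act on Mmp genes, 7 were lower and 2 higher in HR+ LP than in HR- LP. Of all tested genes, 12.8% and 17.2% were called in these directions. In ML against HR+ LP 6 were lower and 0 higher, where 6.70% and 0.0943% of all genes were. In ML against HR- LP 11 were lower and 2 higher, where 21.3% and 23.3% of all genes were. Runx2, a regulator of Mmp13 in bone, averaged 70.2 ± 9.13, 21.3 ± 1.29 and 0.808 ± 0.838 CPM. The part of these factors in the levels of the Mmp genes was not tested.

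The remaining Mmp genes outside the membrane-type group were low as well. Mmp2, the gelatinase gene, was at 2.62, 2.66 and 3.94 CPM in HR- LP, 0.715, 1.17 and 1.69 CPM in HR+ LP, and 2.14, 1.02 and 0.918 CPM in ML. Its HR- LP libraries lay above the others, but the test did not call it (log2 fold change -1.37, SE 0.53, edgeR adjusted p = 0.0749 in HR+ LP). Mmp2 was called lower there with DESeq2 (adjusted p = 0.0232) and limma voom (0.0253), and lower in ML than in HR- LP with DESeq2 (0.0495) and without ML replicate 1 (0.0471). Mmp9, the other gelatinase gene, did not exceed 0.128 CPM in any library. Mmp11, Mmp19, Mmp23 and Mmp28 had group means between 0.191 and 1.97 CPM, and none was called. Mmp23, whose product is held in the membrane before cleavage, was the highest of these. Of the 17 Mmp genes outside the membrane-type group, 7 were tested and 10 were below the filter. Of the 7 tested, 0 were called by edgeR in any comparison, where 29.9%, 6.79% and 44.6% of all tested genes were called. At an unadjusted p below 0.05 the numbers were 2, 0 and 1, and other tools called Mmp2, Mmp3 and Mmp13 as given above.

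Markers of fibroblasts, the textbook source of Mmp2 and Mmp3 in the gland, differed between the populations too. Of the 10 fibroblast markers, 6 were lower and 2 higher in HR+ LP than in HR- LP, against 12.8% and 17.2% of all tested genes. None of the 10 was at 0 in all libraries. Col1a2 was at 12.7, 23.7 and 25.6 CPM in HR- LP, 1.68, 2.85 and 4.25 CPM in HR+ LP, and 4.55, 7.25 and 6.10 CPM in ML. The summed level of the list was 77.1 to 134 CPM in HR- LP, 169 to 308 in HR+ LP and 204 to 360 in ML, raised in HR+ LP and ML by Dcn and Col6a3. The part of such cells in the low levels of Mmp2, Mmp3, Adamts2, Adamts5 and Adamtsl1 was not tested.

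Membrane-type MMP genes made up most of the Mmp signal. Mmp15 (chromosome 8, 95352296 to 95374293), which encodes MT2-MMP, was the most abundant member in all 3 populations. It stood at 477, 469.6 and 302 CPM in HR- LP, 462, 443 and 332 CPM in HR+ LP, and 384, 392 and 293 CPM in ML. The 3 populations overlapped, and in each of them replicate 3 was the lowest library. The log2 fold change was -0.01 (SE 0.21) in HR+ LP against HR- LP and -0.22 (SE 0.21) in ML against HR- LP, with edgeR adjusted p = 0.966 and 0.414. The share of Mmp15 in the summed level of all members was 28.1 ± 6.10% in HR- LP, 39.5 ± 3.93% in HR+ LP and 46.2 ± 2.43% in ML (SD, n = 3).

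Mmp14 (chromosome 14, 54431598 to 54442456), which encodes MT1-MMP, a collagenase of the cell surface that also activates pro-MMP2, was higher in the populations with the reporter. Its levels were 91.4, 83.1 and 78.0 CPM in HR- LP, 170.2, 162 and 135 CPM in HR+ LP, and 215, 179 and 155 CPM in ML. All HR+ LP and ML libraries lay above all HR- LP libraries, and HR+ LP and ML overlapped. The log2 fold change was 0.89 (SE 0.15, edgeR adjusted p = 0.00148) in HR+ LP and 1.12 (SE 0.15, adjusted p = 0.000142) in ML against HR- LP, and 0.23 (SE 0.15, adjusted p = 0.661) between ML and HR+ LP.

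Mmp25 (chromosome 17, 23628315 to 23645269), which encodes a membrane-type enzyme known mainly from leukocytes, was found at a low level in the reporter-positive populations. It had 0 counts in all 3 HR- LP libraries, 0.505, 0.653 and 0.569 CPM in HR+ LP, and 0.770, 2.23 and 0.541 CPM in ML. Against a floor of 3 counts over the HR- LP group (0.0171 CPM), it was at least 33.0-fold higher in HR+ LP and at least 73.9-fold higher in ML, from 147 and 151 counts (edgeR adjusted p = 0.00334 and 0.000928). The ML bound rested on ML replicate 2, without which it was 37.1-fold, from 46 counts. The immune markers moved with it in part, since Itgam, an integrin gene of myeloid cells, also had 0 counts in HR- LP and averaged 0.843 ± 0.215 and 1.02 ± 0.356 CPM in the other populations, while Ptprc averaged 0.251, 0.0191 and 0.201 CPM. Of 8 immune markers 1 was higher and 1 lower in HR+ LP than in HR- LP, against 17.2% and 12.8% of all tested genes. None of the 8 was at 0 in all libraries, and their summed level was 10.7 to 13.5, 5.71 to 7.64 and 3.32 to 4.78 CPM in the 3 populations. The part of leukocytes in the Mmp25 counts was not tested. Mmp16, Mmp17 and Mmp24, the other membrane-type genes, had group means of at most 0.805 CPM and were not called, Mmp16 being below the filter.

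**Figure D2:**
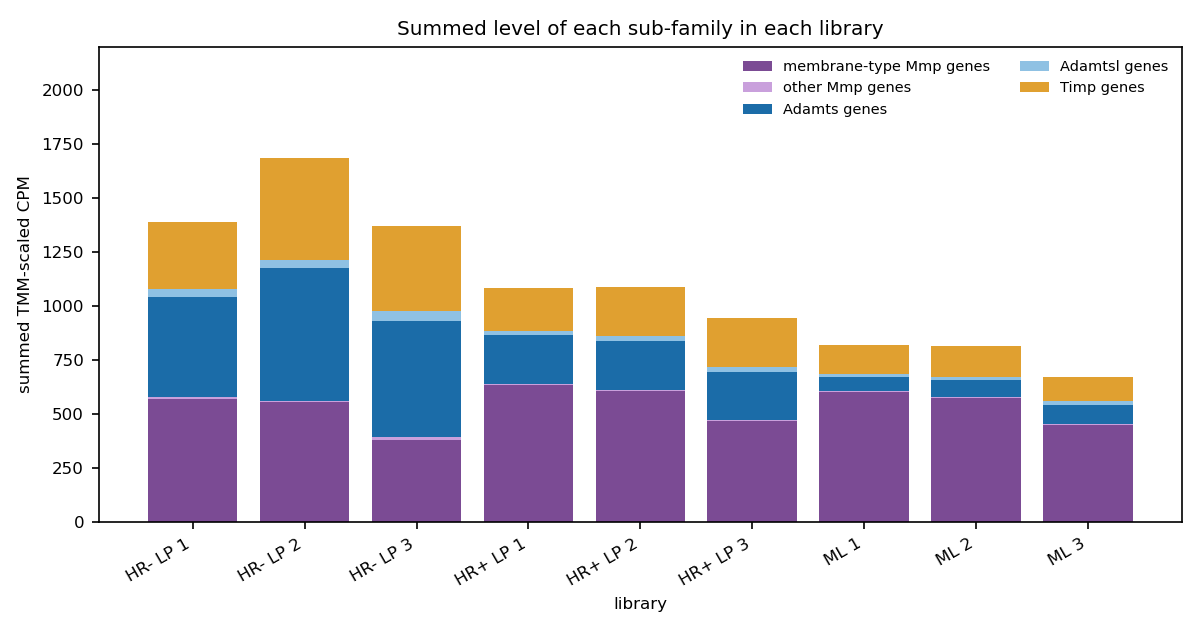
Summed TMM-scaled CPM of each sub-family, stacked, for each of the 9 libraries. The membrane-type Mmp genes, mostly Mmp15, sum to between 381 and 633 CPM in every library, whereas the Adamts genes fall from 467 to 615 CPM in HR- LP to 66.2 to 86.7 CPM in ML.

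The summed level of the 19 Adamts genes was 540.0 ± 74.2 CPM in HR- LP, 225 ± 2.89 CPM in HR+ LP and 77.4 ± 10.4 CPM in ML (SD, n = 3). That of the membrane-type Mmp genes was 502 ± 105, 569 ± 88.1 and 541 ± 80.3 CPM, with overlap between the populations. The 4 Timp genes summed to 392 ± 79.3, 216 ± 18.2 and 129 ± 13.9 CPM.

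Among the proteoglycan-cutting ADAMTS genes, Adamts1 (chromosome 16, 85793827 to 85803113), which encodes a versican and aggrecan protease, was the most abundant in HR- LP. It stood at 109.9, 198 and 172 CPM in HR- LP, 43.2, 52.6 and 61.2 CPM in HR+ LP, and 4.76, 6.89 and 8.66 CPM in ML. The 3 populations did not overlap. The log2 fold change was -1.61 (SE 0.25, edgeR adjusted p = 0.000838) from HR- LP to HR+ LP and -2.94 (SE 0.27, adjusted p = 2.69e-05) from HR+ LP to ML. Its promoter, printed above, held 3 GC boxes and a TATA box. Adamts5, the neighbouring gene and another aggrecan protease, was at most 2.50 CPM, in HR- LP replicate 3, and was not called by edgeR. DESeq2 called it lower in HR+ LP and in ML than in HR- LP (adjusted p = 0.0132 and 0.0317), and limma voom in HR+ LP (0.0497).

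Adamts15 (chromosome 9, 30899155 to 30922452), another versican and aggrecan protease gene, had the most negative log2 fold change of any tested member between ML and HR- LP. Its levels were 120.4, 72.5 and 72.8 CPM in HR- LP, 50.7, 23.0 and 23.7 CPM in HR+ LP, and 0.268, 0.170 and 0.424 CPM in ML. Replicate 1 was the highest library in both LP populations, and no population overlapped another. The log2 fold change was -1.45 (SE 0.33, edgeR adjusted p = 0.00753) at the step between the LP populations and -6.82 (SE 0.47, adjusted p = 3.63e-06) from HR+ LP to ML. Adamts8, a related gene that lies beside Adamts15, was lower in level but followed a like order, at 7.45, 3.69 and 5.80 CPM, then 1.74, 2.16 and 2.08 CPM, then 0, 0.277 and 0 CPM. Its fall from HR+ LP to ML (log2 fold change -4.28, SE 0.94, edgeR adjusted p = 0.0165) was lost with limma voom (adjusted p = 0.0609). In the GENCODE annotation 10.6% of the Adamts8 exon bases overlap Gm29724 on the other strand, and the library kit does not mark strand.

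Adamts9 (chromosome 6, 92772699 to 92944450), a versican protease of the same subgroup, ran against its relatives. Its levels were 1.45, 2.59 and 2.75 CPM in HR- LP, 23.9, 39.6 and 36.3 CPM in HR+ LP, and 32.2, 48.2 and 48.1 CPM in ML. All libraries with the reporter lay above all HR- LP libraries, and HR+ LP and ML overlapped. The log2 fold change was 3.88 (SE 0.30, edgeR adjusted p = 8.87e-06) in HR+ LP and 4.25 (SE 0.31, adjusted p = 1.13e-06) in ML against HR- LP, and 0.37 (SE 0.26, adjusted p = 0.713) between ML and HR+ LP. Exons of A730049H05Rik and Gm15737 on the other strand cover 1805 of its 15048 exon bases, and A730049H05Rik averaged at most 0.256 CPM in any population. Adamts4, the remaining expressed aggrecan protease gene of this subgroup, ranged from 0.658 to 4.85 CPM with overlap of all populations and was not called.

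The procollagen N-proteinase genes Adamts2 and Adamts3 were both lower in HR+ LP than in HR- LP, and Adamts14, the third of that subgroup, was below the filter. Adamts3 (chromosome 5, 89673841 to 89883668), whose product trims procollagen and activates the lymphatic growth factor VEGF-C, was at 121, 192 and 153 CPM in HR- LP, 59.0, 60.9 and 54.4 CPM in HR+ LP, and 15.9, 13.7 and 14.9 CPM in ML. The populations did not overlap, and the log2 fold changes of the steps were -1.42 (SE 0.17, edgeR adjusted p = 0.000129) and -1.97 (SE 0.17, adjusted p = 1.85e-05). Adamts2, which encodes the main procollagen N-proteinase, was at 2.70, 7.10 and 6.33 CPM, then 0.810, 1.31 and 1.02 CPM, then 0.0670, 0.213 and 0.447 CPM. It was lower in HR+ LP by the test (log2 fold change -2.36, SE 0.61, adjusted p = 0.0132), a call lost without HR+ LP replicate 1 (adjusted p = 0.058). Between ML and HR+ LP it was not called (log2 fold change -2.06, adjusted p = 0.100), but it was called with the replicate block (adjusted p = 0.0358), with DESeq2 (0.0181) and without ML replicate 3 (0.0476).

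Of the ADAMTS genes whose products act on fibrillin microfibrils, Adamts10 fell and Adamts6 rose. Adamts10 (chromosome 17, 33523646 to 33553782), mutated in human Weill-Marchesani syndrome, was at 80.0, 98.1 and 85.9 CPM in HR- LP, 30.8, 34.2 and 27.2 CPM in HR+ LP, and 6.56, 3.17 and 4.52 CPM in ML. These groups did not overlap, with log2 fold changes of -1.52 (SE 0.22, edgeR adjusted p = 0.000558) and -2.70 (SE 0.24, adjusted p = 2.03e-05) at the steps. Adamts6, the closest relative of Adamts10, was at 0.605, 1.46 and 0.537 CPM, then 1.99, 1.87 and 1.99 CPM, then 2.88, 2.40 and 4.17 CPM. It was called higher in ML than in HR- LP (log2 fold change 1.83, SE 0.51, adjusted p = 0.0131), which was lost without ML replicate 3 (adjusted p = 0.0614). Between the LP populations Adamts6 was not called (adjusted p = 0.112), and it was called without HR- LP replicate 2 (adjusted p = 0.0192).

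Adamts17, another gene of the human Weill-Marchesani group, was at 1.13, 2.71 and 3.83 CPM in HR- LP, 0.639, 0.498 and 0.832 CPM in HR+ LP, and 0.167, 0.0425 and 0.212 CPM in ML. It was lower in ML than in HR- LP (log2 fold change -4.18, SE 0.82, edgeR adjusted p = 0.00165). The populations did not overlap, but neither step was called, with adjusted p = 0.0626 between the LP populations and 0.162 from HR+ LP to ML. The former was called with DESeq2 (0.0118), limma voom (0.0282), the filter of CPM over 1 (0.0367) and without HR- LP replicate 1 (0.0279), and the latter with DESeq2 (0.0469). Adamtsl4, which encodes a fibrillin-binding protein without a protease domain, was at 34.4, 36.2 and 38.1 CPM, then 20.9, 21.1 and 23.2 CPM, then 11.7, 15.0 and 20.4 CPM. It was lower in HR+ LP (log2 fold change -0.74, SE 0.19, adjusted p = 0.0146), a call lost without HR+ LP replicate 1 (0.0575) or replicate 2 (0.0592), and lower in ML than in HR- LP (log2 fold change -1.20, SE 0.20, adjusted p = 0.000466).

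Adamtsl1, which encodes the matrix protein punctin, was at 1.15, 1.80 and 6.83 CPM in HR- LP, 0.267, 1.04 and 0.756 CPM in HR+ LP, and 0.804, 0.191 and 0.0942 CPM in ML. HR- LP replicate 3 was far above the rest. The call in ML against HR- LP (log2 fold change -3.19, SE 0.99, edgeR adjusted p = 0.0226) was lost without that library (-2.05, adjusted p = 0.121), without ML replicate 2 (0.0808) or replicate 3 (0.0712), and with the replicate block (0.0715). Between the LP populations it was not called (adjusted p = 0.0967), except by DESeq2 (0.0302). Adamtsl2, Adamtsl3 and Adamtsl5 did not exceed 0.429 CPM in any library.

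The pair of ADAMTS genes whose products cut cartilage oligomeric matrix protein both fell. Adamts12 (chromosome 15, 11064773 to 11349232) was at 7.14, 17.0 and 20.3 CPM in HR- LP, 4.96, 5.20 and 5.50 CPM in HR+ LP, and 0.368, 0.383 and 0.565 CPM in ML. The populations did not overlap, with log2 fold changes of -1.50 (SE 0.36, edgeR adjusted p = 0.00913) and -3.56 (SE 0.41, adjusted p = 0.000162), the latter lost with limma voom (adjusted p = 0.0771). Adamts7 was at 13.5, 17.1 and 7.80 CPM, then 7.49, 4.93 and 1.88 CPM, then 1.37, 1.11 and 0.447 CPM, with replicate 3 the lowest library in each population. From HR+ LP to ML its log2 fold change was -2.30, with an SE of 0.56 and an edgeR adjusted p = 0.0286, a call lost with limma voom (0.304) and without HR+ LP replicate 1 (0.122) or 2 (0.0778) or ML replicate 2 (0.094) or 3 (0.109).

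Between the LP populations Adamts7 was not called (edgeR adjusted p = 0.0608). It was called there with DESeq2 (0.0177), limma voom (0.00824), the replicate block (0.00285), without HR- LP replicate 3 (0.0386) and without HR+ LP replicate 1 (0.0407). Adamts8 was also not called between the LP populations (0.173) and was called with limma voom (0.0147), when only the 2 groups compared were fitted (0.0238) and without ML replicate 2 (0.0276). Adamts13, whose product cuts von Willebrand factor, did not exceed 0.965 CPM and was not called, while its substrate gene Vwf averaged 2.92 ± 2.17, 46.4 ± 13.0 and 66.2 ± 11.3 CPM in the 3 populations. Adamts14, Adamts16, Adamts18, Adamts19 and Adamts20 were below the filter, with at most 0.608 CPM in any library.

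**Figure D3:**
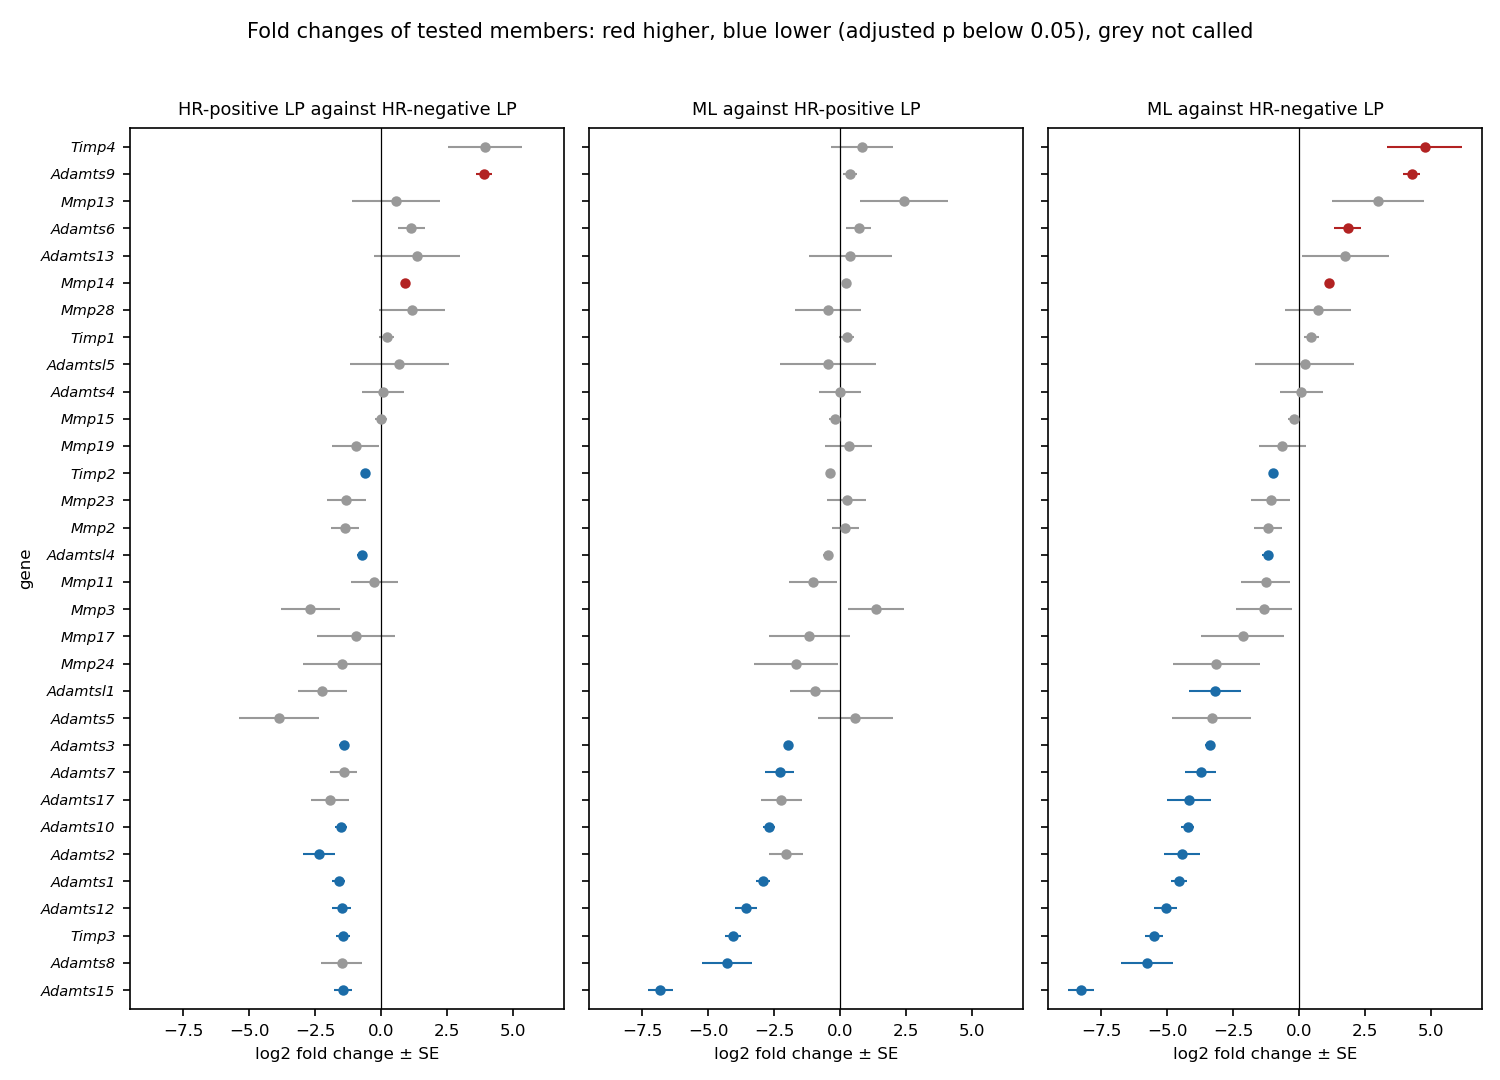
Log2 fold changes with their SE for 32 of the 34 tested members in the 3 comparisons, ordered by ML against HR- LP; red points are higher and blue points lower at an adjusted p below 0.05, and grey points were not called. Panel titles spell HR- LP and HR+ LP as HR-negative LP and HR-positive LP. Mmp25 and Adamtsl2 are left out because they had 0 counts throughout a population. Adamts15 lies lowest, at -8.27 in ML against HR- LP, and the called rises in that panel belong to Timp4, Adamts9, Adamts6 and Mmp14.

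The inhibitor genes did not move together. Timp3 (chromosome 10, 86300412 to 86349505), which encodes the matrix-bound TIMP that also blocks ADAM and ADAMTS enzymes, fell alongside the ADAMTS genes. Its levels were 101, 194 and 184 CPM in HR- LP, 44.0, 54.4 and 76.7 CPM in HR+ LP, and 3.68, 2.72 and 4.14 CPM in ML. No population overlapped another, and the log2 fold changes were -1.45 (SE 0.27, edgeR adjusted p = 0.00257) between the LP populations and -4.06 (SE 0.31, adjusted p = 7.16e-06) from HR+ LP to ML. Timp3 lies within Syn3 on the other strand, and 21.3% of its exon bases overlap Syn3 exons, whose gene averaged 13.7 ± 5.61, 10.6 ± 1.37 and 11.4 ± 2.95 CPM.

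Timp2 (chromosome 11, 118301061 to 118355411), which encodes the TIMP that bridges MT1-MMP and pro-MMP2, was lower in HR+ LP and ML by smaller fold changes. It was at 204, 267 and 200.3 CPM in HR- LP, 143, 162 and 135 CPM in HR+ LP, and 121, 120.3 and 95.5 CPM in ML. The populations did not overlap. The log2 fold change was -0.61 (SE 0.16, edgeR adjusted p = 0.0142) between the LP populations and -0.99 (SE 0.16, adjusted p = 0.000422) in ML against HR- LP. The former was lost without HR- LP replicate 2 (0.0529), HR+ LP replicate 1 (0.0554) or HR+ LP replicate 3 (0.0628).

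Timp1 (chromosome X, 20870166 to 20874737), which encodes a soluble TIMP that blocks membrane-type enzymes poorly, was at 7.08, 9.75 and 9.59 CPM in HR- LP, 7.23, 10.2 and 13.0 CPM in HR+ LP, and 8.31, 14.5 and 13.2 CPM in ML. The populations overlapped, and it was not called, with a log2 fold change of 0.45 (SE 0.29, edgeR adjusted p = 0.235) in ML against HR- LP. Timp4 (chromosome 6, 115244444 to 115252205) was at 0.121, 0 and 0 CPM, then 0.620, 0.856 and 0.449 CPM, then 0.536, 2.34 and 0.494 CPM. It was called higher in ML than in HR- LP (log2 fold change 4.74, SE 1.43, adjusted p = 0.0197), but not without ML replicate 2 (3.59, adjusted p = 0.117). Between the LP populations it was not called (adjusted p = 0.0550), except with DESeq2 (0.00737), limma voom (0.026) and without HR- LP replicate 1 (0.0077).

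Timp4 lies within Syn2 on the other strand, and the library kit does not mark strand. Of the Timp4 exon bases, 1.53% overlap Syn2 exons. Syn2 was at 1.03, 9.27 and 1.32 CPM in HR- LP, 62.2, 262 and 113 CPM in HR+ LP, and 85.3, 393 and 177 CPM in ML. ML replicate 2 was the highest library for both genes. The part of Syn2 reads in the Timp4 counts was not tested. Timp1 likewise lies within Syn1 on the other strand, with 0 overlapping exon bases, and Syn1 did not exceed 1.98 CPM in any library.

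Levels of different genes were compared per kilobase of the gene length given in the deposited table. That length was 2597 bases for Mmp14 and 3622 for Timp2, whereas the exons of all their GENCODE transcripts cover 5960 and 3896 bases. The order of genes, above all the place of Mmp14, therefore depends on the length used. In HR- LP the order began with Mmp15 (97.3 ± 23.1 CPM per kilobase) and Timp2 (61.7 ± 10.4), followed by Timp3 (34.0 ± 10.9), Adamts1 (32.7 ± 9.22) and Mmp14 (32.4 ± 2.61), which lay within their spread of each other. In HR+ LP Mmp15 (96.3 ± 16.4) was followed by Mmp14 (60.0 ± 7.07), Timp2 (40.6 ± 3.83) and Timp3 (12.5 ± 3.57), the last within its spread of Timp1 (11.4 ± 3.24) and Adamts1 (10.7 ± 1.84). In ML Mmp15 (83.3 ± 12.9) and Mmp14 (70.3 ± 11.6) lay about 1 SD apart, ahead of Timp2 (31.0 ± 4.03) and Timp1 (13.5 ± 3.66). Adamts9 came next in ML, at 7.10 ± 1.53 CPM per kilobase, and Timp3 was at 0.751 ± 0.155.

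**Figure D4:**
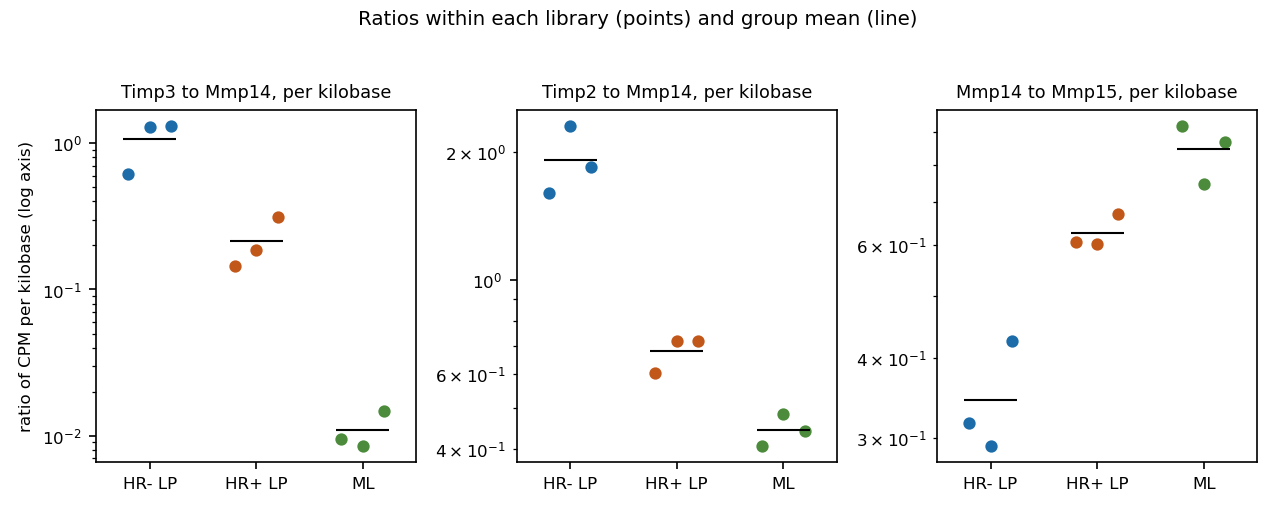
Ratios of levels per kilobase within each library, on log axes; points are libraries and lines the means of 3. The ratio of Timp3 to Mmp14 falls from 0.612 to 1.31 in HR- LP to 0.00846 to 0.0148 in ML, and that of Mmp14 to Mmp15 rises from at most 0.425 to at least 0.749.

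Within each library, the level of Timp3 per kilobase relative to Mmp14 was 0.612, 1.29 and 1.31 in HR- LP, 0.144, 0.186 and 0.315 in HR+ LP, and 0.00953, 0.00846 and 0.0148 in ML. The populations did not overlap. The ratio of Timp2 to Mmp14 was 1.60, 2.30 and 1.84, then 0.603, 0.718 and 0.718, then 0.406, 0.483 and 0.442, again without overlap. These ratios describe RNA levels and combine values already tested gene by gene, so no p-value is given. Their size depends on the gene lengths used, but their order between populations does not.

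Genes that act with these proteases were described from lists chosen with earlier results of these data known. The counts of each list stand beside these shares of all tested genes. In HR+ LP against HR- LP 17.2% were higher and 12.8% lower, and in ML against HR- LP 23.3% and 21.3%. Between ML and HR+ LP 6.70% were lower and 0.0943% higher. Of 13 ADAM and astacin metalloprotease genes, 10 were tested, and 6 were higher and 0 lower in HR+ LP and in ML against HR- LP. By edgeR 0 of the 10 were called between ML and HR+ LP, which is near the share of all genes. Adam10, the sheddase of Notch and cadherins, was at 86.7, 139.9 and 107 CPM in HR- LP, 588, 624 and 606 CPM in HR+ LP, and 750.1, 929 and 789 CPM in ML. It rose by a log2 fold change of 2.45 (edgeR adjusted p = 7.69e-06) between the LP populations. Adam17, the sheddase of amphiregulin and a target of TIMP3, averaged 52.0 ± 3.53, 79.3 ± 7.96 and 94.1 ± 6.41 CPM, and Bmp1, a procollagen C-proteinase, 22.0 ± 3.76, 77.7 ± 0.251 and 102 ± 5.19 CPM.

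Of the 9 other inhibitors and surface partners, 7 were tested, and 3 were lower and 1 higher in HR+ LP than in HR- LP. Reck, which encodes a membrane-anchored MMP inhibitor, averaged 16.9 ± 5.20, 8.79 ± 1.89 and 5.34 ± 1.52 CPM and was lower in HR+ LP (log2 fold change -0.95, edgeR adjusted p = 0.0345). Lrp1, an endocytic receptor that clears proteases and TIMP3, averaged 10.4 ± 7.90, 45.0 ± 2.47 and 58.1 ± 7.67 CPM and was higher in HR+ LP (2.13, adjusted p = 0.00873). Cd44, a hyaluronan receptor that anchors MMPs, averaged 263 ± 31.8, 96.2 ± 12.0 and 31.6 ± 5.27 CPM and was lower at both steps.

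Of 9 genes for activators, membrane serine proteases and their inhibitors, 1 was higher (Spint1, an inhibitor gene) and 1 lower (St14, a protease gene) in HR+ LP. Furin, which activates membrane-type MMP and ADAMTS proenzymes, averaged 167 ± 37.9, 178 ± 20.8 and 180.5 ± 29.8 CPM and was not called. Of 8 genes for cathepsins and their inhibitor cystatin C, 3 were higher and 3 lower in HR+ LP, and Cst3, the cystatin C gene, averaged 1410.3 ± 257, 344 ± 20.8 and 16.2 ± 3.00 CPM.

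Of 26 substrate genes 23 were tested, and 11 were lower and 4 higher in HR+ LP than in HR- LP. The median log2 fold change of the list was -1.62 there. From HR+ LP to ML 5 were lower and 0 higher, with a median of 0.10. Col1a1, Col1a2 and Col3a1, also among the fibroblast markers, had log2 fold changes of 1.05, 1.03 and 1.06 at that step and were not called. Thbs1, the thrombospondin gene and a substrate of ADAMTS1, averaged 1140.4 ± 78.4, 409 ± 110.1 and 20.1 ± 11.4 CPM and was lower at both steps. Fbn2, which encodes a fibrillin of microfibrils, averaged 11.9 ± 4.44, 2.93 ± 0.355 and 0.170 ± 0.136 CPM, also lower at both steps. Vcan, the versican gene, was low throughout, at 2.24 ± 1.75, 2.01 ± 0.288 and 1.62 ± 0.502 CPM, and was not called. Areg, whose product is released from the membrane by ADAM17, averaged 21.9 ± 12.9, 712 ± 104 and 1046 ± 148 CPM. Hbegf, the gene of another membrane-bound growth factor in the list, averaged 379 ± 107, 143 ± 47.2 and 38.2 ± 4.33 CPM and was lower at both steps.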

How the data were processed

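RNA from 9 libraries was sequenced after TruSeq RNA Library Prep Kit v2 preparation, which does not mark strand, per the labels' protocols. The authors deposited raw counts per gene, made with featureCounts on build mm10 per the submitters' processing notes, with a gene length in bases per the file headers. The aligner and annotation are not given in the sources used here. Sample files and the series table differed in 0 cells, and 0 columns belonged to no sample. NCBI gene IDs were matched to RefSeq symbols for 25275 of 27179 genes. Members and lists were chosen with earlier results of these data known.

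Genes were filtered with filterByExpr, scaled by TMM, and tested with edgeR 4.0.16 (R 4.3.3), glmQLFTest on all 9 libraries, with Benjamini-Hochberg adjustment over 15910 genes at 0.05. The SE is the absolute log2 fold change divided by the square root of F. The procedure was run on simulated counts of independent libraries, in which chosen genes were raised in HR+ LP alone. That simulation held no effect shared by same-numbered libraries and no fall from HR- LP, so it says nothing on these. CPM was computed from the deposited counts. Values per library are given for members called in any comparison with a group mean of at least 1 CPM and for Timp genes. Mmp15, Mmp2, Mmp3, Mmp13 and the partner genes at overlapping loci were added after their values were seen, as were the motifs searched. The list of plasminogen system genes is not reported here. Alternatives used DESeq2 1.42.0, limma 3.58.1, other scalings and filters, and left out each library. Overlap of exons was computed from GENCODE M21. Intervals and floors cover counting error only.

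Replicate numbers may pair HR+ LP and ML libraries: deviations of same-numbered libraries from their group means correlated across genes at 0.183, 0.121 and 0.189. Correlations with HR- LP libraries were 0.0254 to 0.147, and differently numbered libraries were not compared. Any pairing is read from the data and not from the labels.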

Additional observations from a re-analysis of the deposited data

How the results depend on the processing

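Of 38 member calls, 29 held under each of the 17 alternatives in which the gene was tested, 9 were lost under at least 1, and 0 reversed. Of the 16 tested members never called by the main test, 4 were called under some alternative (Adamts5, Mmp2, Mmp3 and Mmp13). In HR+ LP against HR- LP, 9 members were lower in the main test, 15 with DESeq2 and 14 with limma voom, and 7 to 10 when 1 library was left out, with 3 to 4 higher. In ML against HR+ LP, 8 were lower, 5 with limma voom, and 7 to 8 when 1 library was left out, with 0 higher throughout. In ML against HR- LP, 5 were higher, 3 with the filter of CPM over 1, where fewer genes were tested, and 4 to 6 when 1 library was left out, with 12 to 14 lower. With the replicate block the counts of members were 3 higher and 10 lower, 0 and 9, and 5 and 12 in these comparisons, and 71 of all genes were higher in ML than in HR+ LP, where the main test called 15. For the pairs of populations with HR- LP the correlations were 0.133, 0.0389 and 0.147 (HR+ LP) and 0.0526, 0.0254 and 0.0849 (ML). The highest, 0.133 and 0.147, exceed 0.121, the lowest between HR+ LP and ML, and differently numbered libraries were not compared. Whether the numbers pair HR- LP libraries therefore cannot be told, and the main test takes no account of pairing.

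The count of all genes higher in ML than in HR+ LP was also 88 with DESeq2, 50 with limma voom, 216 when only the 2 groups compared were fitted, 30 with scaling by library totals, and 4 to 63 when 1 library was left out. Scaling by library totals shifted the median log2 fold change of all genes to 0.115 in HR+ LP and 0.192 in ML against HR- LP and gave 3182 genes higher and 1535 lower in the former, where TMM gave 2731 and 2033. No call of a member changed with either other scaling. Without HR+ LP replicate 1 or 2, 1329 and 1211 of all genes were lower than in HR- LP. Members under about 1 CPM rest on few counts, and differences there may not be detectable at this depth. The cause of each change was not tested.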
